A study of Mus musculus with 22 samples.

Results

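The genes described here are 5 mouse genes for secreted proteins of protease inhibitor families, the cystatins Cst3, Cst8, Cst11 and Cst12 and the Kazal type inhibitor Spink8, out of 31053 genes in the count matrices. They were chosen by their measured levels, since UMIs (unique molecular identifiers, one for each captured transcript) of Cst8, Cst11, Cst12 and Spink8 were present in pooled tissues and missing from circulating cells, with Cst3 added as their broadly expressed relative. That contrast is therefore given as a description, without a test. All 5 genes were found by symbol, and all 5 had UMIs.

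The study asked how loss of the sodium leak channel NALCN changes cells shed into blood. It used mice with a tamoxifen-inducible Cre driven by Prom1 and the ZSG reporter (strain label Prom1-CreERT2;Rosa26ZSG), so the reporter marks cells with Prom1 expression and their descendants. Single-cell 3′ libraries were made from tissue pools and from circulating ZSG+ cells of mice without tumours (ntCZC). The 7 epididymis pools came from males labelled 551 to 610 days old, each holding epididymis, kidney, liver, lung and stomach. Pools 1, 2 and 7 were Nalcn-wt, pools 3 and 4 Nalcn-het and pool 6 Nalcn-null. Pool 5 was het by its title and null by its strain, so it entered no genotype comparison. The 4 uterus pools held uterus and the same other organs, from females of 611 to 654 days. Uterus pool 1 was labelled null, pools 3 and 4 wt, and pool 2 had conflicting labels. The ntCZC libraries comprised 2 wt, 4 het and 4 null libraries from mice aged 551 to 649 days, of both sexes, and 1 wt PBMC library came from a male of 120 days. The organs of a pool had been tagged with hashtag antibodies, and those tags were not used here, so cells were assigned by their transcripts. The labels do not say whether libraries of a group came from separate animals, so p-values measure the spread between libraries.

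Tissue libraries held 1856 to 27857 barcodes and 8571019 to 139793927 UMIs. The ntCZC libraries held 50 to 621 barcodes and 13389093 UMIs together. The library ntCZC wt 3 stood apart, with a median of 45 genes per barcode and 11 of 77 barcodes passing quality limits. In total 80755 barcodes were clustered, without the 5 genes, after low-quality barcodes and predicted doublets were removed.

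Levels are given as CPM, the UMIs of a gene per 1000000 UMIs of the same library or group of cells. One library went against its label, and many values rest on it. Uterus pool 1, labelled female, had both Y-linked UMIs (31.2 CPM) and Xist (1347 CPM), whereas uterus pools 2 to 4 had at most 0.117 CPM from the Y-linked genes. It held 634 epididymal epithelial-like cells, 8.11% of its clustered cells. Among these, 28.4% had Y-linked UMIs without Xist and 15.3% had Xist without Y-linked UMIs. Among its other cells the values were 2.71% and 69.1%. Of the 634 barcodes, 1 to 9 occurred in any one epididymis pool, and none of those was an epididymal cell there. The library is called uterus pool 1 throughout. The comparison of epididymis with uterus pools and the levels in leukocyte-like cells are given with and without it. Values pooled over a cluster, co-detection means and correlations between genes include it.

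The epididymis is the duct in which sperm leaving the testis mature. Its epithelium is divided into segments, from the initial segment through caput and corpus to cauda, and the principal cells of each segment secrete a distinct mixture of proteins into the lumen. Cystatins are a family of small proteins, many of them secreted, whose classical members inhibit papain-like cysteine proteases such as the cathepsins. Cst3 encodes cystatin C, the widely secreted member, abundant in macrophages and dendritic cells. Cst8 encodes CRES, the founding member of a reproductive subgroup to which Cst11 and Cst12 also belong. CRES lacks some of the sites by which classical cystatins bind these proteases. Spink8 belongs to the Kazal family, best known as serine protease inhibitors.

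The 4 cystatins lie in one cluster on chromosome 2. In the GENCODE annotation of mm10, 9 coding genes occupy chr2:148750358-148875692. Their order is Cstl1, Cst11, 8030411F24Rik, Cst12, Cst8, Cst13, Cst9, 9230104L09Rik and Cst3. Cst11 (chr2:148768609-148771497) is on the minus strand, as is Cst3 (chr2:148871722-148875692), whereas Cst12 (chr2:148789361-148793546) and Cst8 (chr2:148798785-148805595) are on the plus strand. Spink8 lies apart at chr9:109812280-109826633, plus strand. The 250 bases before the RefSeq start of Cst3, Cst8 and Cst12 (build GRCm38.p6) are shown because Cst8 and Cst12 were concentrated in epididymal cells and Cst3 was found in all classes. They were searched on both strands for AGAACA (the hexamer of androgen receptor sites), AGGAAG (an ETS core) and TATAAA, and matches are in capitals. These motifs do not overlap one another in the windows shown. Each sequence is given 5′ to 3′ on the strand of its gene.
Cst3 (chr2:148875513-148875762, minus strand): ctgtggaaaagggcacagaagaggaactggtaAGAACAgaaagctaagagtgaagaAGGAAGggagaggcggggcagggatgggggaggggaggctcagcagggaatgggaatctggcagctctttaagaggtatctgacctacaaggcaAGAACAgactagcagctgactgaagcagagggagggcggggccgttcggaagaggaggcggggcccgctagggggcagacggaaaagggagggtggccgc
Cst8 (chr2:148798589-148798838, plus strand): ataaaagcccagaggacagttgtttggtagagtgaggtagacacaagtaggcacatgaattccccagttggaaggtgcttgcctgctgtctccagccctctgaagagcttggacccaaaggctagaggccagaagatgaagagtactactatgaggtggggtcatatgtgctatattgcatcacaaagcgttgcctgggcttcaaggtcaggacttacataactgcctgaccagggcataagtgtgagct
Cst12 (chr2:148789115-148789364, plus strand): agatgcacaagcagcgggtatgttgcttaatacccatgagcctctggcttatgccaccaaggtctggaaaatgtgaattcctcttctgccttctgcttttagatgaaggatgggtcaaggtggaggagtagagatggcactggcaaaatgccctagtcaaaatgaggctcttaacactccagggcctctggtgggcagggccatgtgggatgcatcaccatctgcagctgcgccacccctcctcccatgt

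The Cst3 window held AGAACA at 218 and at 100 bases before the RefSeq start and AGGAAG at 194. RefSeq and GENCODE place the starts differently, and 180 of the 250 window bases of Cst3, 54 of Cst8 and 4 of Cst12 lie inside the GENCODE gene. The AGAACA at 100 is therefore within the gene as GENCODE has it, and the other matches are before it. The windows of Cst8 and Cst12 held none of the 3 motifs. Among 32851 promoters of the same length, 16.1% held AGAACA on either strand, 29.5% AGGAAG and 12.4% TATAAA. The GC content was 59.6% for Cst3, 49.6% for Cst8 and 52.8% for Cst12, against a median of 52.4% over all promoters. A match is a run of letters and was not tested as a binding site. Cst11 and Spink8 were not matched in the promoter table.

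A 3′ library gives one UMI per molecule, so the levels were not divided by gene length. Cst8 had 65.5, 0.415, 6.21, 144, 95.5, 80.3 and 0.230 CPM in epididymis pools 1 to 7. Cst11 had 148, 8.13, 208, 406, 189, 986 and 5.47 CPM in the same order. Cst12 had 105, 12.4, 255, 117, 229, 710 and 6.36 CPM. For the 3 cystatins, pools 2 and 7 were the lowest libraries, and Cst8 was near the level of uterus pools 2 to 4 there. Pool 6 was the highest for Cst11 and Cst12, and pool 4 for Cst8.

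Spink8 had 482, 171, 1665, 2090, 631, 2347 and 1724 CPM in epididymis pools 1 to 7. It was present in all 7 pools at 171 CPM or more, including pool 7, where the 3 cystatins were low. Uterus pool 1 had 724 CPM of Cst8, 1210 of Cst11, 986 of Cst12 and 895 of Spink8, so its cystatin levels were above those of every epididymis pool. Uterus pools 2 to 4 together had 25 UMIs of Cst8, 7 of Cst11, 22 of Cst12 and 173 of Spink8. In all libraries a lower level in a whole pool can be fewer epididymal cells or less RNA per cell, which cannot be told apart from the pool's sum.

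None of the 4 genes had a UMI in the 10 ntCZC libraries or in the PBMC library. A count of 0 among 13389093 ntCZC UMIs allows up to 0.224 CPM (3 counts over the group). Against that floor the mean over epididymis pools was at least 250-fold higher for Cst8 (56.0 ± 55.8 CPM, SD, n = 7) and at least 1244-fold higher for Cst11 (279 ± 340 CPM). It was at least 915-fold higher for Cst12 (205 ± 242 CPM) and at least 5808-fold higher for Spink8 (1301 ± 859 CPM). The SD was about as large as the mean for the 3 cystatins, and the bounds hold for the mean and not for each pool. Without pool 6 they were 718-fold for Cst11 and 539-fold for Cst12. For Cst8, pools 2 and 7 (0.415 and 0.230 CPM) lay only 1.85- and 1.03-fold above the floor. Over cells, 0 of 2501 ntCZC barcodes allows a share with a UMI of up to 0.120%. These floors, and the exact binomial (Clopper-Pearson) and exact Poisson 95% intervals given below, cover counting error and no other source of spread.

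Cst3 was present in every library. It had 969, 1922, 1224, 1002, 1155, 1613 and 1086 CPM in epididymis pools 1 to 7, and 1082, 1079, 723 and 528 CPM in uterus pools 1 to 4. In ntCZC libraries it ranged from 130 CPM in ntCZC wt 3 to 4627 CPM in ntCZC null 2, with a median of 3598 CPM. The PBMC library had 470 CPM. Epididymis and uterus pools overlapped in Cst3.

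**Figure D1:**
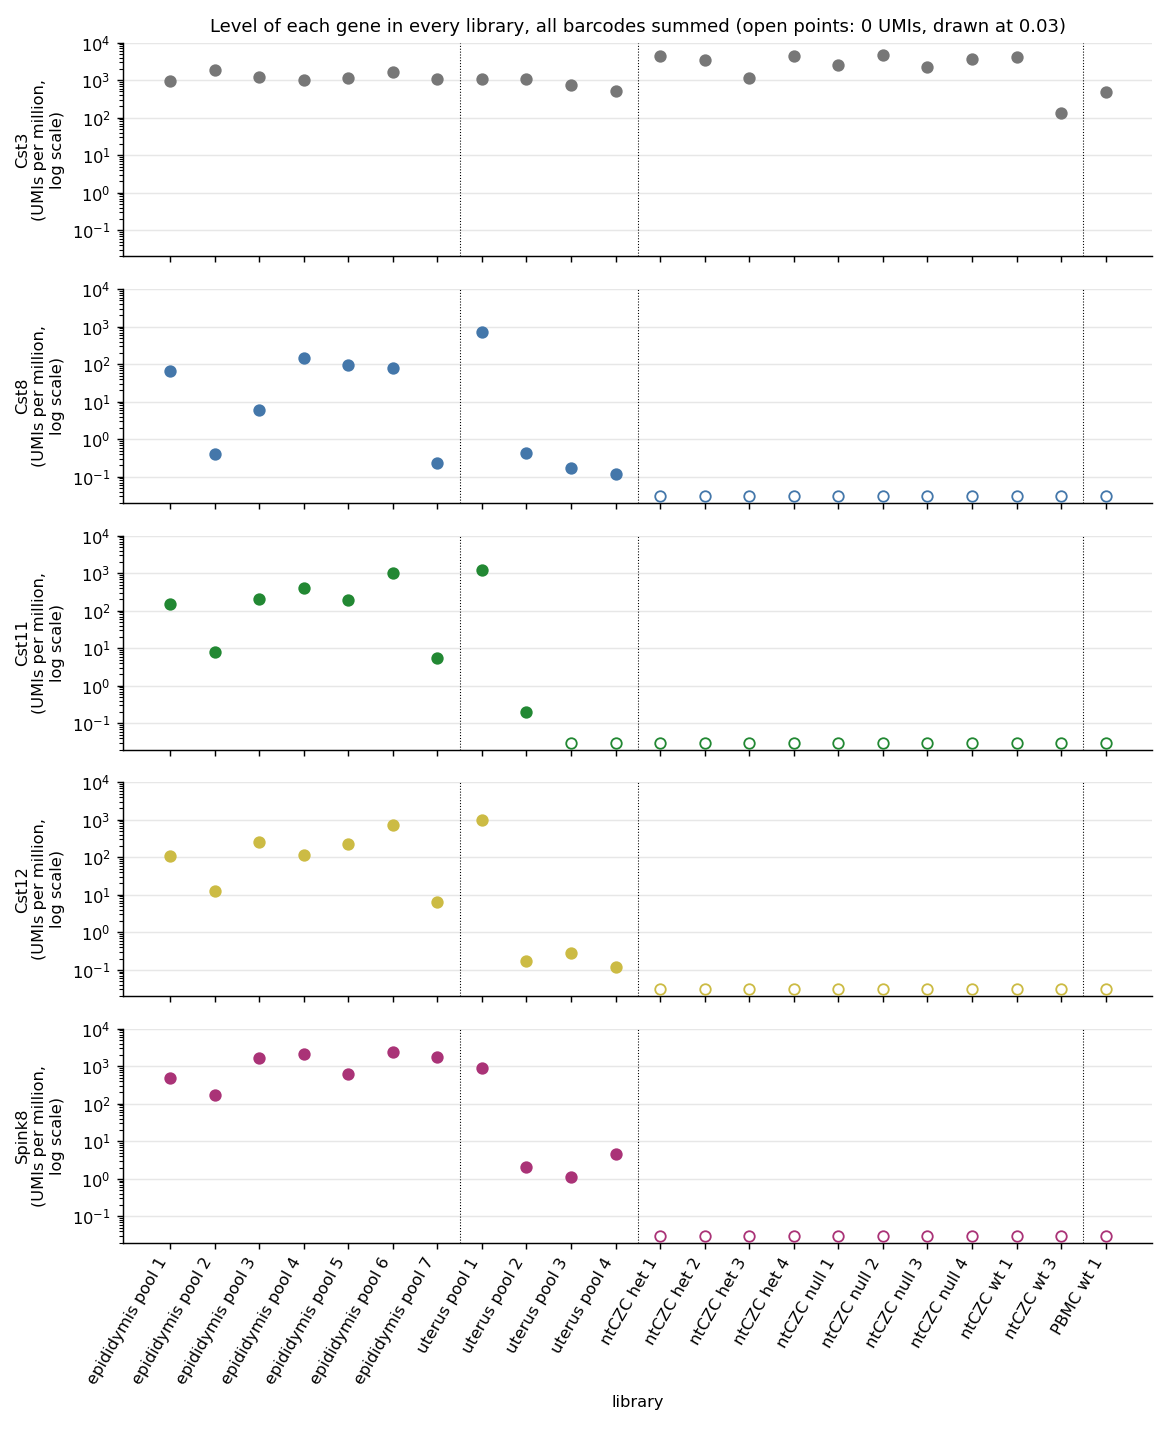
Level of Cst3, Cst8, Cst11, Cst12 and Spink8 (CPM, log scale) in each of the 22 libraries, with open points for libraries with 0 UMIs. Cst8, Cst11, Cst12 and Spink8 lie at 0 in all blood libraries and at most 4.55 CPM in uterus pools 2 to 4, whereas uterus pool 1 lies at 724 to 1210 CPM. Cst3 is above 100 CPM everywhere.

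Epididymis and uterus pools share kidney, liver, lung and stomach and differ in sex and in the reproductive organ. With all 11 tissue libraries no member passed edgeR's quasi-likelihood test (Benjamini-Hochberg adjusted p under 0.05), against 0.0299% of 16719 genes called. The log2 differences (epididymis minus uterus pools, ± SE) were 0.62 ± 0.21 for Cst3, -1.50 ± 1.88 for Cst8, -0.04 ± 1.96 for Cst11, -0.19 ± 1.80 for Cst12 and 2.61 ± 1.58 for Spink8. The adjusted p was 0.292 for Cst3 and 0.406 for Spink8, and 0.685 to 0.993 for the 3 others.

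Without uterus pool 1, the 4 epididymal genes had almost no UMIs in the remaining uterus pools, 25 of Cst8, 7 of Cst11, 22 of Cst12 and 173 of Spink8 over pools 2 to 4. They passed the filter on low counts through the epididymis pools, where they are high, so a fit of 7 pools against 3 had to find them higher, and its calls are not given as a test. As a ratio of pooled counts, Spink8 was 495-fold higher in epididymis pools than in uterus pools 2 to 4 (95% interval 427 to 578) and Cst12 560-fold (370 to 894). The ratio was 2268-fold for Cst11 (1101 to 5641) and 143-fold for Cst8 (96.8 to 221). Cst3, which had 528 to 1079 CPM in uterus pools 2 to 4, was 0.72 ± 0.24 log2 units higher in epididymis pools, short of the threshold in edgeR (adjusted p = 0.0815), which called 7.33% of 16883 genes, 3.88% higher and 3.45% lower. DESeq2 called Cst3 (adjusted p = 0.0134), and called 17.1% of 16855 genes.

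Some other genes of these families and of the epididymis were near 0 in uterus pools 2 to 4 too, and the following levels are a description for the same reason. Spink11 had at most 0.0567 CPM in those pools and a mean of 146 CPM over epididymis pools, and Spink12 at most 0.233 and 41.4 CPM. Spink1, an inhibitor of trypsin, had 187 to 377 CPM in uterus pools 2 to 4 and a mean of 461 CPM in epididymis pools (log2 difference 0.58, not called in edgeR). Among secretory genes of the caput, Gpx5, a secreted glutathione peroxidase, had at most 0.312 CPM in uterus pools 2 to 4 and a mean of 1912 CPM in epididymis pools, and the beta-defensin Defb20 at most 0.0567 and 1141 CPM. Rnase9, on the list of the initial segment and proximal caput, had 0 and 17.8 CPM, and Crisp1 of the distal duct list at most 0.112 and 201 CPM. Other genes on the list of Rnase9 were not near 0 there. Ggt1 had 30.8 to 56.9 CPM in uterus pools 2 to 4 and a mean of 69.5 CPM in epididymis pools, and Dusp6 34.8 to 55.6 and 31.3 CPM. In uterus pool 1 the genes near 0 in pools 2 to 4 had 481 CPM (Spink11), 62.4 (Spink12), 4406 (Gpx5), 3679 (Defb20), 117 (Rnase9) and 212 CPM (Crisp1).

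The cysteine cathepsins and legumain, a list that holds the proteases inhibited by classical cystatins, were measured in the fit without uterus pool 1. None of 11 was called in edgeR (median log2 difference 0.26, against 0.01 over all genes), and 4 of the 11 had an unadjusted p under 0.05, as did 29.1% of all genes in that fit. Ctsb, the most abundant of them, had a difference of 0.34, and Ctsl 1.80 (edgeR adjusted p = 0.0525). Of 4 genes of clear and narrow cells, which kidney intercalated cells share, Foxi1 and Atp6v1g3 were called higher (2.39 and 1.89) and are named after their values were seen. None of 4 basal cell, 4 ciliated cell and 2 spermatid genes tested was called. The 1 seminal vesicle gene in the fit (log2 difference 9.42) had no UMIs in uterus pools 2 to 4 and is not read as a test. With all 11 tissue libraries none of the genes in these lists was called by edgeR.

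The UMIs of the 4 epididymal genes sat in few barcodes. Over the epididymis pools, the top 1% of barcodes held at least 86.8% of Cst8 UMIs, 71.8% of Cst11 and 75.2% of Cst12, each lowest in pool 6, and in uterus pool 1 they held 70.3%, 71.1% and 76.1%. For Spink8 that share ran from 56.0% in pool 6 to 93.9% in pool 4. For Cst3 the top 1% held 19.6% (pool 2) to 37.4% (pool 4) of UMIs. A single barcode of pool 4 had 5297 UMIs of Spink8, and one of pool 1 had 3567 of Cst11, both among the barcodes removed as predicted doublets. In pool 1 the removed barcodes held 88.9% of Cst8, 92.0% of Cst11 and 91.4% of Cst12 UMIs, and epididymal epithelial-like cells 4.66% of Cst11. Cst3 had a UMI in 37.5% to 78.4% of the barcodes of an epididymis pool, and Cst11 in 0.185% to 7.76%.

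After removal of predicted doublets, 1988 epididymal epithelial-like cells remained, in 4 clusters named here by a leading gene. Each carried at least 4 of the 9 epididymal markers used for naming (Lcn5, Lcn8, Gpx5, Adam7, Ces5a, Defb20, Spag11b, Crisp1 and Rnase10). Spermatid, seminal vesicle and ciliated cell genes were at or under 19.9 CPM in all 4 clusters, and basal cell genes at or under 43.2 CPM. The Lcn8 cluster (532 cells, 86.3% from uterus pool 1) was led by Defb48, Lcn8, Lcn9, Ly6g5c and Teddm2. The Lypd8 cluster (851 cells, 74.7% from pool 6) was led by Lypd8, Spink12, Cryba4, Slc38a5 and Bsph1. The Crisp1 cluster (526 cells from 8 libraries) was led by Defb22, Bsph2, Defb28, Wfdc13 and Defb43, with Crisp1, a secreted protein that binds sperm, among the first 10. The Lcn5 cluster (79 cells, 88.6% from uterus pool 1) was led by Spink2, Defb30, Epp13, AY761185 and Rnase9, with Lcn5 among the first 10. The share of each cluster taken by 1 library means that cluster and library are partly the same split. For the Lcn8 and Lypd8 clusters, no library held at least 20 cells of both. The 14 Lypd8 cluster cells of uterus pool 1 had 2152 CPM of Cst8, 11215 of Cst11, 5928 of Cst12 and 1213 of Spink8. The 4 Lcn8 cluster cells of pool 6 had 9284, 16136, 12821 and 1105 CPM. The parts of library and cluster were not tested.

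Cst8 was the most restricted of the cystatins. It had 9565 CPM in the Lcn8 cluster, 361 in the Lypd8 cluster, 145 in the Crisp1 cluster and 13.2 in the Lcn5 cluster. In the 2 libraries with at least 20 cells of the Lcn8 cluster, its level was 6158 CPM in pool 5 and 9972 CPM in uterus pool 1. In the Lypd8 cluster it was 107 CPM in pool 3, 487 in pool 4 and 615 in pool 6. The value of pool 4 rests on 1 barcode, with 360 of 402 Cst8 UMIs, and without that barcode the whole cluster had 298 CPM. Every one of these libraries had lower Cst8 in the Lypd8 cluster than any library had in the Lcn8 cluster.

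Cst11 and Cst12 were found in both the Lcn8 and the Lypd8 cluster. Cst11 had 15454 CPM in the Lcn8 cluster and 5702 in the Lypd8 cluster, and Cst12 had 13707 and 4478. In the Lypd8 cluster, Cst11 was 3705 CPM in pool 3, 6080 in pool 4 and 8130 in pool 6, and Cst12 was 4609, 1079 and 5752. The ratio between Cst11 and Cst12 thus differed between libraries, with pool 4 low in Cst12 and not in Cst11. In the Crisp1 cluster Cst11 had 216 CPM and Cst12 177, and those levels rest on 1 barcode of pool 1, with 495 of the cluster's 537 Cst11 UMIs, 410 of its 440 Cst12 UMIs and 338 of its 360 Cst8 UMIs. Without that barcode the Crisp1 cluster had 9.19 CPM of Cst8, 17.5 of Cst11 and 12.5 of Cst12, below the Lcn5 cluster with all its barcodes (13.2, 98.0 and 62.3 CPM). In the Lcn5 cluster 1 barcode of uterus pool 1 held 38 of 74 Cst11 UMIs and 37 of 47 Cst12 UMIs. Leaving out the highest barcode of each gene, the Lcn5 cluster had 12.3, 48.3 and 13.4 CPM.

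Spink8 had its lowest level in the Lcn8 cluster, where the 3 cystatins were highest. It had 36705 CPM in the Crisp1 cluster, 19188 in the Lcn5 cluster, 15131 in the Lypd8 cluster and 221 in the Lcn8 cluster. In the Crisp1 cluster it ranged from 28498 CPM in pool 1 to 52776 in pool 4 over the 6 libraries with at least 20 cells, uterus pool 1 included (29930). In the Lypd8 cluster it was 18926 CPM in pool 3, 11674 in pool 4 and 11934 in pool 6. Within the Lcn8 cluster it was 161 CPM in pool 5 and 227 in uterus pool 1, where leukocyte-like cells had 30.2 and 82.8 CPM, and all libraries of the Crisp1 and Lypd8 clusters with at least 20 cells lay above these. Cst3, by contrast, had 2352 CPM in the Lcn8 cluster, 3664 in the Lypd8 cluster, 3010 in the Crisp1 cluster and 1033 in the Lcn5 cluster.

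**Figure D2:**
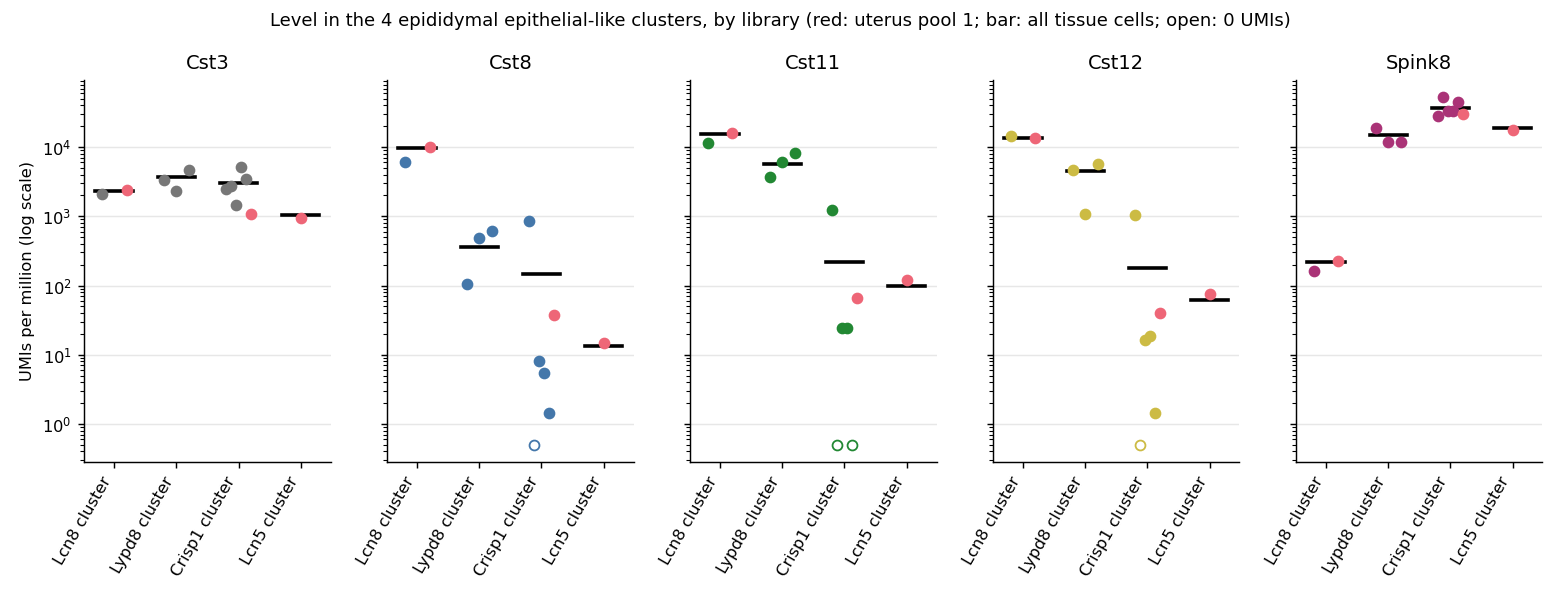
Level of each gene (CPM, log scale) in the Lcn8, Lypd8, Crisp1 and Lcn5 clusters, with 1 point per library with at least 20 cells, uterus pool 1 in red, and a bar for all tissue cells of the cluster. Cst8 drops from 9565 CPM in the Lcn8 cluster to 361 in the Lypd8 cluster, Cst11 goes from 15454 to 5702 and Cst12 from 13707 to 4478, Spink8 goes from 221 to 15131, and Cst3 stays between 1033 and 3664.

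The clusters also differed in other inhibitors of both families and in segment genes. Spink11 had 19412 CPM in the Lcn5 cluster, 2809 in the Lypd8 cluster, 955 in the Crisp1 cluster and 9.17 in the Lcn8 cluster. Spink12 had 2048, 1122, 78.0 and 94.0 CPM in the same order, and Spink2 4813 CPM in the Lcn5 cluster and at most 19.7 elsewhere. Of the other genes on the cystatin family list, Cstb, a cystatin that stays inside cells, was the one above 50 CPM (202 to 272 CPM over the 4 clusters). The Lcn8 cluster had Lcn9 at 14593 CPM and Rnase10 at 2556, genes of the initial segment and proximal caput, whereas Rnase9 of the same list was highest in the Lcn5 cluster (5020). Crisp1 had 9631 CPM in the Crisp1 cluster against 461 to 579 elsewhere. These are descriptions, since clusters were made from the transcripts of these cells.

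The neighbours of the cystatins on chromosome 2 differed among themselves. 9230104L09Rik, next to Cst3, had 9297 CPM in the Lcn8 cluster, 1902 in the Lypd8 cluster, 124 in the Crisp1 cluster and 27.8 in the Lcn5 cluster. Like Cst8, Cst11 and Cst12 it was highest in the Lcn8 and next in the Lypd8 cluster. Its level in the Crisp1 cluster rests on the same barcode of pool 1, and was 15.4 CPM without it. Cstl1, 8030411F24Rik, Cst13 and Cst9 had 4, 21, 8 and 52 UMIs over all 11 tissue libraries. 8030411F24Rik lies between Cst11 and Cst12. Reads that match several of these related genes could be split between them by the counting, which was not examined here.

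Co-detection was counted in single cells thinned to 1000 UMIs. In the Lcn8 cluster, 89.2% of 465 cells had UMIs of all 3 cystatins and 15.1% had Spink8. In the Crisp1 cluster, 92.6% of 433 cells had Spink8 without any of the 3 cystatins. In the Lypd8 cluster, 71.8% of 762 cells had Spink8 together with a cystatin, and 15.5% had all 3 cystatins. In the Lcn5 cluster, 89.7% of 78 cells had Spink8 alone. Leukocyte-like cells, which should lack these genes, were taken from the 7 epididymis pools and uterus pool 1. Uterus pool 2, with 1 epididymal epithelial-like cell, was left out. The mean share over these libraries was 1.12% for Cst8, 2.16% for Cst11, 1.66% for Cst12 and 7.06% for Spink8. The shares of Crisp1 cluster cells with a cystatin, 1.85% for Cst8, 3.00% for Cst11 and 1.62% for Cst12, are given beside it without a comparison, since the leukocyte-like shares differed between libraries (for Cst8, from 0% in pools 3 and 7 to 6.40% in uterus pool 1) and the clusters draw on libraries unequally. The median depths were 3539 UMIs in the Lcn8, 2801 in the Lypd8, 2417 in the Crisp1 and 7839 in the Lcn5 cluster, and 868 to 5990 in leukocyte-like cells over the tissue libraries, before thinning.

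The mixture within the Lypd8 cluster was uneven from cell to cell. Taking the UMIs of Cst8, Cst11, Cst12 and Spink8 together, the cystatin part was 0 to 10% in 27.2% of its 749 cells with such UMIs and 90 to 100% in 18.6%, with a median of 50%. All bins between held cells. In the Lcn8 cluster 99.6% of 450 such cells had a cystatin part of 90 to 100%, and in the Crisp1 cluster 98.7% of 397 had 0 to 10%. Detection and cystatin part were not compared with a test, because the clusters were built from the same cells.

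**Figure D3:**
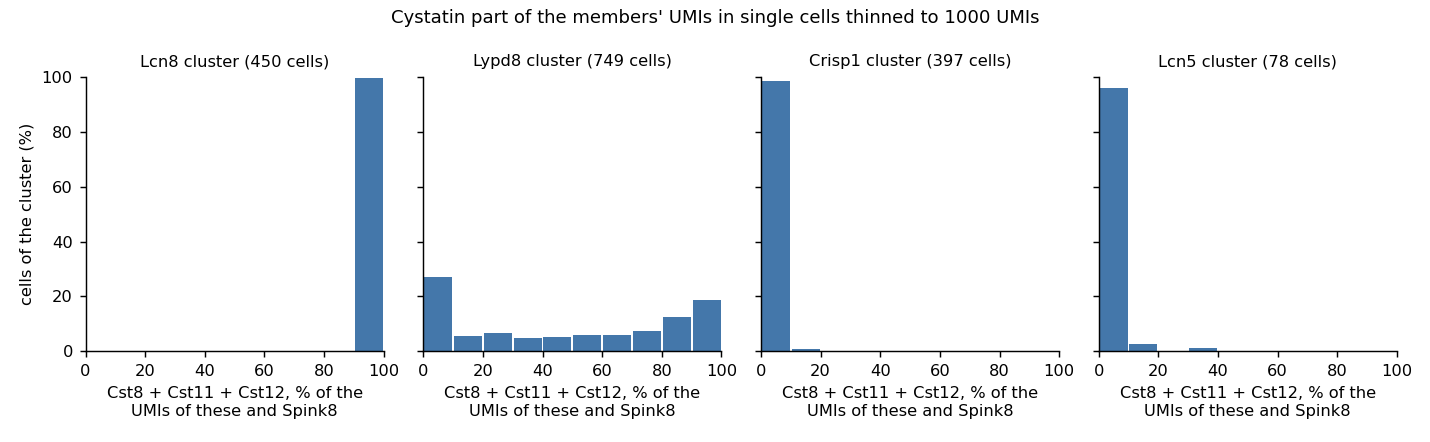
Share of cells (%) by the part that Cst8, Cst11 and Cst12 take of the UMIs of these genes and Spink8. Cells were thinned to 1000 UMIs, and those with few UMIs of these genes were left out. Cells of the Lcn8 cluster pile up at 90 to 100% (99.6%), those of the Crisp1 and Lcn5 clusters at 0 to 10% (98.7% and 96.2%), and those of the Lypd8 cluster spread over the whole range.

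Across libraries, pairs were compared with the co-detection that their separate shares would give. Epididymal epithelial-like cells of pools 3 to 7 and of uterus pool 1 gave 6 libraries, so the smallest p of the exact sign-flip permutation test was 0.03125, and 10 pairs were tested. Cst11 and Cst12 were found together more often in 6 of 6 libraries, by a mean log2 ratio of 0.89 ± 0.67 (SD). The values for Cst8 were 0.56 ± 0.34 with Cst11 (5 of 6 libraries above) and 0.21 ± 1.012 with Cst12 (4 of 6). For Cst8 with Cst12 the lowest library was pool 4 (-1.72), which rests on 6 cells with Cst8 (0 with both, 1.15 expected). With Spink8 the mean was -0.71 ± 0.83 for Cst8, -0.53 ± 0.85 for Cst11 and -0.57 ± 0.91 for Cst12, and 0 or 1 of 6 libraries were above. In pool 7 no thinned cell had Cst8, so its pairs with Cst8 stand at 0. No pair passed adjustment (lowest adjusted p = 0.0893, exact sign-flip permutation test, n = 6). None could have passed, since 6 libraries, 10 pairs and the Cst8 pairs at 0 in pool 7 kept every adjusted p above 0.05. The lack of a call therefore says nothing about the pairs. Without thinning, where pool 1 entered with 55 cells, all 3 cystatin pairs passed (adjusted p = 0.0391 to 0.0446). With doublets kept, the 3 cystatin pairs and the pairs of Cst11 and Cst12 with Spink8 passed (adjusted p = 0.0469). In both settings more libraries reached the limit on cells, which lowers the smallest possible p. The calls therefore cannot be laid to thinning or doublets alone.

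The counts for pairs with Spink8 differed between libraries, and so did the share of cells with Spink8. In pool 5, 52 cells had Cst8 and 62 had Spink8, and 6 had both against 29.6 for separate shares. In uterus pool 1 the pair was found in 73 cells against 157. In pool 6, with 636 cells in the Lypd8 and 156 in the Crisp1 cluster, 129 cells had Cst8 and Spink8 against 140. The difference between pools 5 and 6 was not tested.

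Barcodes with at least 10 UMIs of a gene were also counted, without any filter or clustering. Of 650 tissue barcodes with at least 10 UMIs of Cst8, 94.0% also had 10 of Cst11 (95% interval 91.9 to 95.7%), 82.8% had 10 of Cst12 and 9.54% had 10 of Spink8 (7.39 to 12.1%). Of 2316 barcodes with at least 10 UMIs of Spink8, 2.68% had Cst8, 17.8% Cst11 and 14.2% Cst12. Without uterus pool 1, 157 barcodes had 10 UMIs of Cst8, of which 98.7% had Cst11 and 32.5% had Spink8. In uterus pool 1, 2.23% of 493 barcodes with 10 UMIs of Cst8 had 10 of Spink8. Of barcodes with 10 UMIs of Cst11, 32.2% had 10 of Spink8 over all tissue, 53.2% in the epididymis pools and 7.34% in uterus pool 1. For Cst12 the values were 32.9%, 59.1% and 3.61%. Over the epididymis pools together, most barcodes high in Cst11 or Cst12 thus had Spink8 too. Pool 6 alone held 397 of the 693 such barcodes for Cst11 and 328 of the 526 for Cst12. Pool 5 differed. Of its thinned epididymal epithelial-like cells, 7 of 53 with Cst11 and 6 of 51 with Cst12 had Spink8. For Cst11 it was 66 of 68, 41 of 44, 388 of 410 and 3 of 3 in pools 3, 4, 6 and 7. The barcodes with 10 UMIs include predicted doublets and are pooled over libraries, so the values were not compared with a test.

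Removed doublets bear on these counts. When all passing barcodes were clustered, 28.0% of 2768 epididymal epithelial-like cells were predicted doublets, against 16.2% of all passing barcodes in the tissue libraries, and the share ran from 16.7% in pool 6 to 92.7% in pool 2. With them kept, the cluster nearest to the Lcn8 cluster gained 18 cells in pool 1 and 18 in pool 4. Those of pool 1 had 7602 CPM of Cst8 and 17484 of Cst11, and those of pool 4 had 12709 and 16109. The Spink8 level of the removed cells there was 305 and 424 CPM. In pool 5 the removed cells of that cluster were 5. The removed cells of pool 1 had a median of 17816 UMIs. Their part in the differences between pools was not tested.

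Over sums of each class in each tissue library (169 sums, 11428 genes), the genes with a pattern most like Cst8 were 9230110F15Rik (Pearson r = 0.90), Teddm1a (0.88), Defb25, Lcn9 and Defb48. Those for Cst11 were 9230104L09Rik (0.88), Cst12 (0.86), Spag11b, Defb47 and Defb20, and those for Cst12 were Spag11b (0.87), Defb20, Cst11, 9230104L09Rik and Defb25. Spink8 was closest to Defb28 (0.83), Defb42, D730048I06Rik, Spink11 and Cuzd1. For Cst3 they were Rab7b (0.80), Clec10a, Psap, Ppfia4 and Tbc1d8, none of them shared with another member. Between members, r was 0.80 for Cst8 with Cst11, 0.49 for Cst8 with Spink8 and 0.01 for Cst8 with Cst3. Over the 162 sums other than those of epididymal epithelial-like cells, they were 0.71, 0.29 and -0.11. The sums share libraries and depth, so these values are a description.

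Among named classes Cst3 was highest in dendritic-like, macrophage-like and monocyte-like cells. Dendritic-like cells had the highest level in every tissue library with 20 such cells, 8095 to 13371 CPM over 11 libraries (median 12448). Macrophage-like cells followed with 1519 to 8043 CPM (median 4026), then monocyte-like cells (median 2655), epididymal epithelial-like cells (median 2430 over 7 libraries) and fibroblast-like cells (median 1635 over 9 libraries). Neutrophil-like and endothelial-like cells had medians of 1142 and 1087 CPM, and B, T and NK cell-like cells 538, 324 and 257 CPM. The ranges of macrophage-like, monocyte-like and epididymal cells overlapped, as did those of the lymphoid classes, whereas dendritic-like cells overlapped no other class. Clusters within a class differed. Of the dendritic-like clusters, that led by Ccl17 and Ccl22 (2760 cells) had 12222 CPM and that led by Siglech and Ccr9 (234 cells) 1181 CPM. A cluster of 8067 cells led by Ear1, Chil3 and Marco, with the macrophage markers Adgre1 and Mrc1, had 1040 CPM. It carried too few markers for a name and is in none of the macrophage-like values. These clusters are named after their values were seen.

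**Figure D4:**
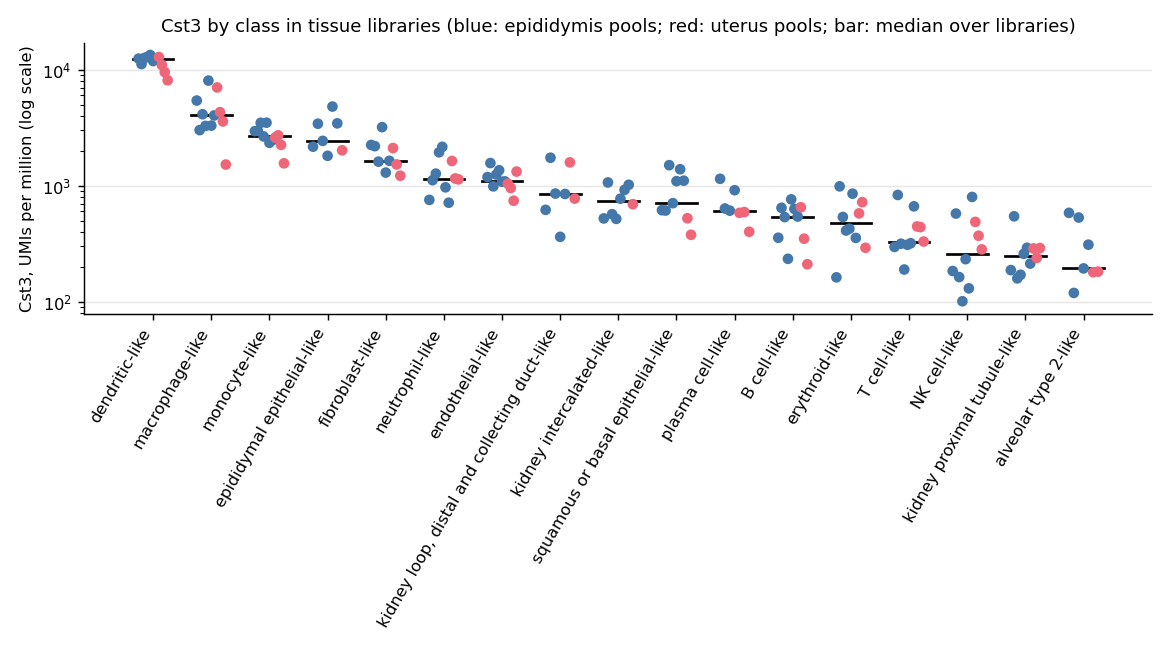
Cst3 (CPM, log scale) by class, 1 point per tissue library with at least 20 cells, epididymis pools in blue and uterus pools in red, with the median as a bar. Dendritic-like cells lie between 8095 and 13371 CPM, above macrophage-like cells (median 4026), and T cell-like cells lie at a median of 324 CPM.

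Within libraries, Cst3 was higher in macrophage-like than in fibroblast-like cells by 1.24 ± 0.40 on the log2 scale (9 of 9 libraries, adjusted p = 0.00391). It was higher than in endothelial-like cells by 1.82 ± 0.75 (11 of 11 libraries, adjusted p = 0.0026). The difference was 3.27 ± 0.64 to B cell-like and 3.52 ± 0.82 to T cell-like cells (10 of 10 libraries each, adjusted p = 0.0026). All 4 are exact two-sided sign-flip permutation tests on log2(CPM + 1) at the smallest p their number of libraries allows, adjusted over the 4. The classes came from clusters made without Cst3.

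In ntCZC libraries Cst3 was higher in monocyte-like than in B cell-like cells. Monocyte-like cells had 4706 to 7472 CPM (mean 5813 ± 977, SD, n = 7 libraries) and B cell-like cells 167 to 1355 CPM (n = 6). Monocyte-like cells of tissue libraries had 1555 to 3486 CPM. The class joins a cluster led by Vcan and Cd177 (2498 CPM, epididymis pool 2 the largest source with 16.3%) and one led by Cd300e and Eno3 (6005 CPM, ntCZC het 4 the largest source with 15.5%). The 2 clusters were not separated by library here. That difference between blood and tissue belongs to the contrast from which the genes were chosen and was not tested.

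Cst3 did not differ by Nalcn genotype in ntCZC beyond the spread between libraries. Its level was 4113 and 130 CPM in the wt libraries, 4434, 3439, 1152 and 4539 in the het libraries, and 2477, 4627, 2240 and 3757 in the null libraries. With sex as a term, the log2 difference was 1.76 ± 0.81 for null minus wt (edgeR adjusted p = 0.983), 0.88 ± 0.63 for het minus wt (adjusted p = 0.750) and 0.88 ± 0.64 for null minus het (adjusted p = 0.866). The group means of null and het (3275 and 3391 CPM) have the opposite order to that fit, in which 3 null and 1 het libraries were female. The background was 0% of 9379 genes for null minus wt, 0.107% for het minus wt and 0% for null minus het, and 360, 741 and 686 genes had an unadjusted p under 0.05 in edgeR. DESeq2 called 14, 106 and 23 genes. Without ntCZC wt 1, which left the poor library ntCZC wt 3 as the one wt library, Cst3 was called for null minus wt (3.96, adjusted p = 0.0245) and for het minus wt (3.09, adjusted p = 0.0329), where the background was 0.649% and 0.974% of 9861 genes. Without ntCZC wt 3 the differences were 0.92 and 0.06.

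Among epididymis pools of one genotype, 3 wt, 2 het and 1 null, no member was called. The largest differences were those of the null pool against wt, 4.06 ± 1.68 for Cst11 and 3.97 ± 1.37 for Cst12 (edgeR adjusted p = 0.854 for both, unadjusted p = 0.0551 and 0.0298). The null group was 1 library and took its spread from the others. For het minus wt the differences were 2.52 ± 1.46 for Cst11, 2.08 ± 1.18 for Cst12, 1.85 ± 2.33 for Cst8, 1.25 ± 0.91 for Spink8 and -0.29 ± 0.39 for Cst3 (edgeR adjusted p = 0.738 to 0.884). The wt pools include pools 2 and 7, the lowest in cystatins. edgeR called 0% of 17928 genes in both contrasts, with 1243 (het minus wt) and 962 (null minus wt) at an unadjusted p under 0.05, and DESeq2 called 121 and 76. Epididymal epithelial-like cells were 0.0416% to 2.61% of clustered cells in wt pools, 2.21% and 2.27% in het pools and 10.7% in the null pool, so wt and het overlapped. The lowest was pool 2, where 92.7% of such cells were removed as doublets. The part of these shares in the result was not tested.

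Within epididymal epithelial-like cells the comparison could be made for 2 wt (pools 1 and 7) and 2 het pools (3 and 4). Pool 6, the only null pool, was in the fit too and added no spread, which came from the wt and het pools. Cst11 had 1018 and 137 CPM in the wt pools and 3537 and 4564 in the het pools. Cst12 had 764 and 155 CPM in wt and 4400 and 810 in het pools. The groups did not overlap for either gene, with 764 and 810 CPM the nearest values for Cst12. With 2 pools a side such an order is common by chance, and its share over all genes was not counted. In pool 1, however, 1 barcode held 495 of 552 Cst11 UMIs and 410 of 414 Cst12 UMIs, and in pool 7 1 barcode held 61 of 99 Cst11 UMIs. Het minus wt was 2.84 ± 0.87 for Cst11 (edgeR adjusted p = 0.2498) and 2.55 ± 0.98 for Cst12 (adjusted p = 0.336), short of the threshold, against a background of 0.112% of 9833 genes called. Spink8 was -0.64 ± 0.27 (adjusted p = 0.390), Cst8 -0.45 ± 1.57 (0.940) and Cst3 0.21 ± 0.31 (0.836). For Cst11, DESeq2 gave an adjusted p of 0.0414, where its background was 1.31% of 8689 genes, and leaving out pool 1 gave 5.12 in edgeR (adjusted p = 0.00799), with a background of 1.11% of 10730 genes. With doublets kept it was 0.83 (adjusted p = 0.907). The het pools were mostly cells of the Lypd8 cluster (131 of 149 and 61 of 85 cells), and the wt pools mostly of the Crisp1 cluster (45 of 55 and 121 of 127), so cluster and genotype moved together and their parts were not tested.

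UMIs of the 4 genes also occurred in cells that were not epididymal. In leukocyte-like cells, Spink8 had 23.0 to 194 CPM over the 7 epididymis pools (median 46.8), and 82.8 CPM in uterus pool 1. In uterus pools 2 to 4 it had 0 to 0.564 CPM. For Cst11 the values were 0.709 to 40.5 CPM, 113 CPM and 0 CPM. Cst12 had 0.236 to 24.7 CPM and Cst8 0.0962 to 8.98 CPM in epididymis pools. After thinning to 1000 UMIs, 2.48% (pool 5) to 15.8% (pool 7) of leukocyte-like cells in epididymis pools had Spink8, compared with at most 0.0986% in uterus pools 2 to 4. Not thinned, the shares were 4.82% (pool 5) and 24.8% (pool 7), at median depths of 1241 and 1550 UMIs.

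The difference in leukocyte-like cells between 7 epididymis and 4 uterus pools did not pass an exact two-sided permutation test for any of the 5 genes after adjustment. It was 1400 CPM for Cst3 (p = 0.0273, adjusted p = 0.136) and 54.9 CPM for Spink8 (adjusted p = 0.394), exact permutation. Without uterus pool 1, Cst3 was 1953 CPM higher in the leukocyte-like cells of epididymis pools (3788 ± 657 against 1835 ± 511 CPM, SD, exact permutation p = 0.00833, adjusted p = 0.0417). Spink8 was then 75.9 ± 63.4 against 0.357 ± 0.310 CPM. Since Spink8 was near 0 in the remaining uterus pools, its separation was given beforehand. The Spink8 levels are therefore a description, and no test is read from them. The leukocyte-like mixture differed between pools, and its part in the Cst3 difference was not tested. In endothelial-like cells the Cst3 difference was 201 CPM with all pools (exact permutation adjusted p = 0.432).

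The mix of the 4 genes in leukocyte-like cells was set beside that of the epididymal cells of the same library. In pool 7, Spink8 made up 99.4% of the 4 genes' UMIs in leukocyte-like cells and 99.3% in epididymal cells. In pool 5 the parts of Cst8, Cst11, Cst12 and Spink8 were 12.0%, 19.3%, 28.1% and 40.6% in leukocyte-like cells and 10.6%, 19.9%, 24.8% and 44.6% in epididymal cells. In uterus pool 1 they were 19.5%, 32.6%, 23.8% and 23.99%, against 20.7%, 33.4%, 28.5% and 17.3%. The Spink8 part was 75.9% in leukocyte-like against 79.1% in epididymal cells in pool 4, 65.1% against 55.6% in pool 6, 79.2% against 70.5% in pool 3 and 90.2% against 98.8% in pool 2. The gap was largest in pool 1, with 71.8% and 91.7%, and there the removed doublets held most UMIs of the 4 genes (41803, of which 44.4% were Spink8). Removed doublets also held most of them in pool 2 (21234) and pool 4 (45588), where the gap was smaller. The epididymal value of pool 2 rests on 81 UMIs in 6 cells. These are descriptions within a library, not tests.

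**Figure D5:**
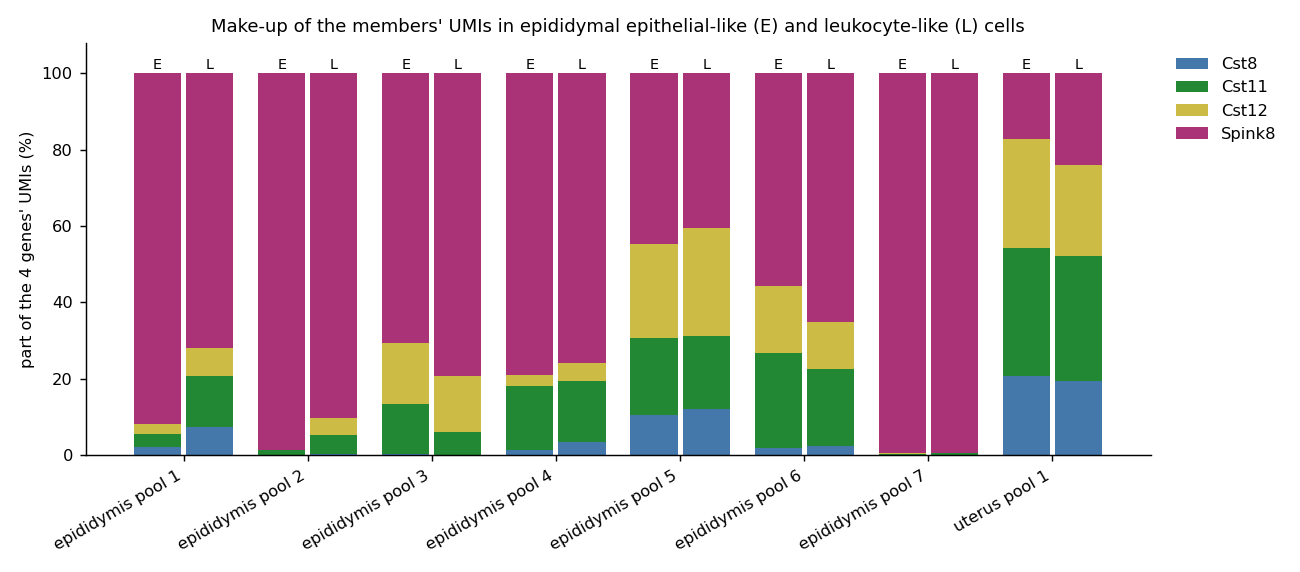
Parts (%) of Cst8, Cst11, Cst12 and Spink8 in their summed UMIs, in epididymal epithelial-like cells (E) and leukocyte-like cells (L) of the 7 epididymis pools and uterus pool 1. The Spink8 parts of the paired bars are 99.3% and 99.4% in pool 7 and 17.3% and 23.99% in uterus pool 1, and they lie farthest apart in pool 1 (91.7% and 71.8%). The E bar of pool 2 rests on 81 UMIs.

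A share above the leukocyte level was looked for in other epithelia, chosen after the data had been seen. Kidney intercalated-like cells, which share Foxi1 and proton pump genes with the clear and narrow cells of the epididymis, had Spink8 in 20.7% of thinned cells against 7.06% in leukocyte-like cells, higher in 8 of 8 libraries. The exact sign-flip permutation test gave p = 0.00781, the smallest possible, and adjusted p = 0.0781 over 20 comparisons. Their Spink8 level was 262 to 900 CPM over 7 epididymis pools, and 196 CPM in uterus pool 1. The 16 intercalated-like cells of uterus pools 2 and 3 held 8 Spink8 UMIs, 6 of them in pool 2. The cystatins gave no single direction in the same cells. The thinned share with Cst11 was 1.20% against 2.16% (0 of 8 libraries higher, adjusted p = 0.0781, exact sign-flip permutation). In uterus pool 1, however, the 27 intercalated-like cells had 380 CPM of Cst8, 415 of Cst11 and 369 of Cst12, against 67.4, 113 and 82.3 CPM in leukocyte-like cells, a wider gap than for Spink8 (196 against 82.8 CPM). Those levels are of 27 cells, and their share with Cst11 was below that of leukocyte-like cells in this library too. The thinned share was higher in 1 of 8 libraries for Cst8 and in 2 of 8 for Cst12. Squamous or basal epithelial-like cells had Spink8 in 13.3% of cells (7 of 8 libraries higher, adjusted p = 0.234, exact sign-flip permutation), and in uterus pool 2, where leukocyte-like cells had 0.506 CPM, they had 46.1 CPM, with at most 2 UMIs in a cell. Kidney proximal tubule-like cells had Spink8 in 6.91% and endothelial-like cells in 6.79%. Ciliated-like cells could be compared in pools 2 and 3 alone, where 4.27% had Spink8 against 5.44% of leukocyte-like cells (0 of 2 libraries higher). Their Cst12 level was 306 CPM in pool 2 and 42.5 CPM in pool 3, from UMIs in 2.35% of 85 and 1.02% of 98 cells. Without organ tags, intercalated-like cells of kidney and epididymis could not be separated.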

How the data were processed

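UMI counts per gene and barcode were deposited by the authors as matrices, 1 per library. Per the submitters' processing notes they were made with Cell Ranger 2.1.1 on mm10, and the matrix headers name version 3.0.2. The counts were not normalized, and Seurat is named for later steps. No column belonged to a sample outside the series (0 columns). Each gene was summed over all barcodes of a library and divided by the library's UMIs to give CPM. For cell classes, 95843 of 179929 barcodes were kept (200 genes or more, mitochondrial share up to 25%), and 15088 predicted doublets were removed. They were the barcodes of each tissue library with the highest score by Scrublet's method, up to a share set beforehand from its number of barcodes (1.48% to 22.3%). The remaining 80755 were clustered without the 5 genes (Leiden resolution 1, 51 clusters) and named from marker lists that hold none of the 5.

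Libraries were the replicates. Sums were tested with edgeR 4.0.16 (quasi-likelihood, TMM, filterByExpr, Benjamini-Hochberg at 0.05, R 4.3.3), with DESeq2 1.42.0 as an alternative. Other values were compared with exact permutation tests in scipy 1.17.1, on log2(CPM + 1) for Cst3 classes. For co-detection, cells were thinned to 1000 UMIs, shallower cells were left out, libraries with at least 50 such cells entered, and 0.5 was added to observed and expected counts. Class sums needed 20 cells. Intervals are 95%, and the floor for a count of 0 is 3 counts. The tests were checked on simulated data. Alternatives were other size factors, no count filter, other depths and resolutions, doublets kept, the replicate block and leaving out each library.

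The named genes are the 5 members, the list genes with the highest mean CPM in epididymis pools (up to 4 a list), the 5 genes most like each member and the leading genes of each epididymal cluster. Lists covered cystatins, Kazal type inhibitors, cathepsins, initial segment, caput, distal duct, basal, clear and narrow, ciliated, spermatid, seminal vesicle and Y-linked genes. Members and lists were chosen with earlier results of these data known. The comparison of other classes with leukocyte-like cells, the fit with doublets kept and DESeq2 without uterus pool 1 were added after the data had been seen.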

Additional observations from a re-analysis of the deposited data

Results flagged for a closer look

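Of 22 groups of libraries examined for a library far from the others (Dixon's test at 95%), 11 had one, where chance gives about 1 in 20 groups. Most concern uterus pool 1. Over all barcodes it had 724.4 CPM of Cst8, 1210 of Cst11, 986 of Cst12 and 894.9 of Spink8, with the next uterus pool at 0.426, 0.199, 0.279 and 4.55 CPM. In its leukocyte-like cells the levels were 67.38 CPM for Cst8, 112.7 for Cst11, 82.32 for Cst12 and 82.81 for Spink8, with the next uterus pool at 0.169, 0, 0 and 0.564 CPM. Uterus pool 1 is also the library whose Y-linked UMIs went against its label, and the part of that in these levels was not tested.

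The other library was epididymis pool 6. It had 986 CPM of Cst11 and 710.3 CPM of Cst12 over all barcodes, with the next pool at 406 and 255 CPM, and 40.53 CPM of Cst11 in leukocyte-like cells, with the next pool at 14.4 CPM. Pool 6 also held the largest share of epididymal epithelial-like cells among the epididymis pools (10.7% of clustered cells, against at most 3.42% in the others), and its part in these levels was not tested.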

How the results depend on the processing

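Over 49 results and 556 alternatives, 471 kept direction and side of the threshold (or, for counts, stayed within 1.5 times), 0 lost a call, 19 gained one, 25 changed sign and 41 counts moved. Except where a left-out library shows it, the cause was not tested. Uterus pool 1 decided the pool contrast. With each library left out in turn, the log2 difference ran from -1.95 to 7.92 for Cst8, -0.76 to 11.9 for Cst11, -0.89 to 9.89 for Cst12 and 2.18 to 8.91 for Spink8, and the genes called from 2 to 1238, each highest without that pool. DESeq2 without it gave 0.72 for Cst3, 8.001 for Cst8, 12.02 for Cst11, 9.98 for Cst12 and 8.78 for Spink8 and called 2881 genes. Calls of the 4 epididymal genes without it are not read as tests, since these genes passed the count filter through the epididymis pools. With all libraries DESeq2 called 130 genes, and passing barcodes alone gave 2, against 5.

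In genotype comparisons of pools, leaving out a library moved Cst3 from -0.47 to 0.0853 (het minus wt, highest without pool 2) and from -0.0167 to 0.54 (null minus wt, lowest without pool 1), and Cst8 from -1.998 to 7.83 (het minus wt, lowest without pool 4). DESeq2 called 121 and 76 genes, against 0. Within epididymal cells, Cst3 ran from -0.065 to 0.44, Cst8 from -1.64 to 7.53, Cst11 from 1.97 to 5.12 and the genes called from 0 to 119. Cst8 and Cst11 were highest without pool 1, which left 1 wt library, and Cst8 was 0.19 without pool 3, which left 1 het library. DESeq2 gave 2.81 for Cst11 and called 114 genes, and with doublets kept Cst8 was 0.24, Spink8 0.0328 and 0 genes were called.

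In ntCZC, Cst3 ran from 0.92 to 3.96 (null minus wt) and from 0.0618 to 3.09 (het minus wt), lowest without ntCZC wt 3 and highest without ntCZC wt 1. Genes called ran from 0 to 64 (null minus wt), from 2 to 96 (het minus wt) and from 0 to 25 (null minus het). DESeq2 called 14, 106 and 23, no count filter 4, 92 and 60, and DESeq2-type size factors in edgeR (RLE) 5 for het minus wt, against 0, 10 and 0.

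Deviations of libraries with the same title number had r of -0.33 and -0.22 in pools and -0.20 to 0.23 in ntCZC. They were taken from genotype means, so a genotype with a single pair of libraries gives mirrored deviations. These few values therefore cannot settle whether title numbers pair the libraries. With the replicate block no member's call changed, Cst3 in pools was -0.15 against 0.17 (null minus wt), and 0 genes against 10 were called in ntCZC (het minus wt).

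For co-detection without thinning, Cst3 gave 0.0746 with Cst8, 0.0880 with Cst11, 0.0548 with Cst12 and 0.0328 with Spink8, and the cystatin pairs 0.70 (Cst8 and Cst11), 0.72 (Cst8 and Cst12) and 1.00 (Cst11 and Cst12). With doublets kept these pairs gave 0.99, 1.12 and 1.26, and Spink8 gave -0.57 with Cst11 and -0.65 with Cst12. In leukocyte-like cells the difference between pools ran from 1076 to 1953 CPM for Cst3, from -19.5 to 2.94 for Cst8, from -26.3 to 11.3 for Cst11 and from -17.9 to 9.53 for Cst12, each highest without uterus pool 1. Depth limits the statements on uterus pools 2 to 4 and blood, where counts of the 4 genes were 0 to 75 UMIs a library.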
